A study of Mus musculus with 8 samples.

Results

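The m6A peaks described here are annotated to the coding sequence of protein-coding genes, sit within 1 exon and span fewer than 400 nt. The annotation is given to a peak as a whole, and not every base under it need be coding. They were taken from the authors' 2 peak lists, 1 for each genotype, as the rows of class CDS and biotype protein_coding with exactly 1 exon block below that size. The choice used the position, class and size of a peak and neither its enrichment nor its presence in the other list. The cKO list held 985 such peaks among its 6709 peaks, and the Control list held 2134 among 8397, which makes 3119 of 15106 peaks in all. They fell in 790 genes in the cKO list and in 1504 genes in the Control list. Of the 1894 genes with such a peak in either list, 400 had one in both.

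Both lists come from primary hepatic stellate cells of C57BL/6J mice, cultured for 7 days, in which the cells activate spontaneously. The cKO samples carry the genotype "HSC-specific Mettl3-knockout", and the Control samples are given as WT. Each genotype has 2 libraries of RNA precipitated with an antibody against m6A and 2 input libraries, 8 samples in 4 groups. The Cre driver, the age of the mice and whether the 2 libraries of a genotype came from separate animals are not given in the labels. Each list is 1 call per genotype with no value for a replicate, so the spread between replicates cannot be measured, no difference between genotypes has a test, and the read depth behind a peak is unknown. Intervals given with shares are exact Clopper-Pearson 95% intervals over peaks or genes and cover counting error only. The fold of a peak is the authors' own enrichment value, read here as precipitated over input RNA, and is used to rank peaks within a list. The 2 lists need not share a scale of fold. Folds of both lists set side by side are therefore listed values and not a measured change in methylation. Mettl3, the gene of the enzyme that adds m6A to mRNA, and its partner Mettl14 had no peak of any kind in either list, so the peaks give no check of the knockout.

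m6A is a methyl group on the N6 position of adenosines inside RNA. It is written in the nucleus by a complex of METTL3, METTL14 and WTAP, mostly at adenosines followed by a cytosine with GGAC as a frequent core, and it is read by YTH domain proteins that affect the decay and translation of the transcript. In mammalian mRNA it is known for long internal exons, the region of the stop codon and the last exon. An antibody recovers fragments of RNA and not single bases, so a peak is wider than the site or sites under it, and an antibody of this kind can also recognise the related cap-adjacent base m6Am at the transcript start.

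Some of these peaks reach into the RefSeq windows around transcript starts (GRCm38.p6, which is the mm10 build), from 250 nt before to 50 nt after the start, and there their bases can be shown. The start need not be that of the peak's own gene, and for Lhx2, Bccip, Zbtb8a and Rora it is that of a neighbour on the opposite strand. A stretch of at least 50 nt could be read for 29 genes. By the longest stretch of each gene, 8 held GGAC on the strand of the peak and 6 held it on the opposite strand. Lhx2 was counted by its Control stretch, without GGAC on the peak strand, although its shorter cKO stretch held GGAC at 2 places. The stretches below are shown because they cover the 3 situations that recur in the results, namely cKO peaks without a Control counterpart, peaks found in both lists, and Control peaks without a cKO counterpart. A counterpart is a peak of the other list whose exon blocks share at least 1 bp on the same strand, and a peak that has one is called matched. Bases are in lower case, 5′ to 3′ on the strand of the peak, with every GGAC in capitals, and positions are those of mm10.
Dnajb1, cKO list, chr8:83608298-83608522, plus strand: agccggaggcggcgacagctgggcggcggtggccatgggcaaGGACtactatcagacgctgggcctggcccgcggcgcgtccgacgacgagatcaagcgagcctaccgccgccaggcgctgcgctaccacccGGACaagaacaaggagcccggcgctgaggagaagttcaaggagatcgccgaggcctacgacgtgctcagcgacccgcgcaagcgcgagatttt
Bmyc, cKO list, chr2:25706799-25706928, plus strand: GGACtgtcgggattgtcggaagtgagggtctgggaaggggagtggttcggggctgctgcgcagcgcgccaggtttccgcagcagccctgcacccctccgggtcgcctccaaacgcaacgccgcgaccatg
Lhx2, cKO list, chr2:38368896-38369016, plus strand: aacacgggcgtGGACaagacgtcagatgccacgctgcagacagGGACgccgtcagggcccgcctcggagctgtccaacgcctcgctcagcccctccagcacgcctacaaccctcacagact
Lhx2, Control list, chr2:38368956-38369095, plus strand: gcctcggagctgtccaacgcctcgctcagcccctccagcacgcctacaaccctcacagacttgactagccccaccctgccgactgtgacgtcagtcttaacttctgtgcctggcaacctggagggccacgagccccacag
Id2, cKO list, chr12:25096043-25096165, minus strand: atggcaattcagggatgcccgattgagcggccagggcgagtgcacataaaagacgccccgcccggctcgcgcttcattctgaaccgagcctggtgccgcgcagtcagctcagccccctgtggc
Ski, cKO list, chr4:155222486-155222562, minus strand: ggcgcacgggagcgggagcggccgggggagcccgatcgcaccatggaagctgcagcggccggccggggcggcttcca
Bccip, Control list, chr7:133709333-133709483, plus strand: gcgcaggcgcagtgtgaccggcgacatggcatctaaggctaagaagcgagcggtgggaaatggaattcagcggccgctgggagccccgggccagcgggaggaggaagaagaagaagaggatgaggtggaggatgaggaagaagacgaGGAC
Zbtb8a, Control list, chr4:129354282-129354461, minus strand: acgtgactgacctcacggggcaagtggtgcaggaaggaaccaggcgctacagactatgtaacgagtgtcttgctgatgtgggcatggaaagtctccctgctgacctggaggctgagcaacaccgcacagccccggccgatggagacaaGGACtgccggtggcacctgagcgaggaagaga
Rora, Control list, chr9:69364406-69364497, plus strand: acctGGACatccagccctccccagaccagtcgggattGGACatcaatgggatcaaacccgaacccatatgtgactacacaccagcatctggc

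The Dnajb1 and Bmyc stretches belong to cKO peaks with no Control counterpart. Dnajb1, which encodes an HSP40 co-chaperone of HSP70, held GGAC at 2 places and GGACT at 1 of them, and 54.4% of the 32851 start windows hold GGAC within the same positions. Bmyc, a Myc family gene of rodents, held 1 GGAC, against 38.9% of windows. The Lhx2 stretches show how far an overlap can be from identity. Lhx2 encodes a LIM homeodomain factor of quiescent stellate cells, and its cKO peak of 121 nt and its Control peak of 151 nt shared 61 nt. The cKO stretch held GGAC at 2 places, where 36.5% of windows hold it, and the Control stretch at 0 places, where 40.0% do. The Id2 and Ski stretches, from cKO peaks matched by a Control peak, held no GGAC in these letters, where 37.3% and 26.2% of windows hold one. Of the printed Id2 stretch, only the 4 nt at chr12:25096043-25096046 also lie in the Control peak. The Ski stretch is printed once because the Control peak lies at the same position. In the Control list, Bccip held 1 GGAC (43.1% of windows), Zbtb8a 1 (48.6%) and Rora 2 (28.3%). The Bccip peak had a cKO counterpart, and the Zbtb8a and Rora peaks had none. A match of these letters is not a measured site, and the base sequence of the remaining peaks was not used here.

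Short one-exon peaks made up a smaller part of the coding peaks of the cKO list than of the Control list. Of 3585 cKO coding peaks, 985 were of this form (27.5%, 26.0 to 29.0%), and of 4447 Control coding peaks, 2134 were (48.0%, 46.5 to 49.5%). The cKO number was 46.2% of the Control number. One-exon coding peaks of 400 nt or more were also a smaller part of the cKO list, with 127 (3.54%) against 494 in the Control list (11.1%). Coding peaks that cross junctions ran the other way. Those across 1 junction numbered 1187 in the cKO list (33.1%) and 1125 in the Control list (25.3%), and those across 2 or more numbered 1286 in the cKO list (35.9%) and 694 in the Control list (15.6%). RNA abundance was not analysed here. In bulk RNA a peak absent from 1 list, a less abundant transcript and fewer cells that express the gene cannot be told apart.

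A larger share of the cKO short peaks than of the Control short peaks was matched in the other list. A Control peak overlapped 579 of the 985 cKO short peaks (58.8%, 55.6 to 61.9%). Over all cKO peaks that share was 41.8%, and over the other cKO coding peaks it was 42.2%. A cKO peak overlapped 439 of the 2134 Control short peaks (20.6%, 18.9 to 22.4%). Over all Control peaks that share was 33.7%, and over the other Control coding peaks it was 54.7%. The share of the short form was thus above that of its own list in cKO cells and below it in Control cells. By form, the cKO shares were 91.3% for long one-exon peaks, 32.4% for peaks across 1 junction and 46.5% for peaks across 2 or more. The Control shares were 51.2% for long one-exon peaks, 46.4% across 1 junction and 70.7% across 2 or more, so that the short form had the lowest share of the 4 coding forms in the Control list. Without the mitochondrial chromosome, an alternative chosen after seeing the data, the shares were 59.0% in the cKO list and 20.3% in the Control list. Because the Control list is the longer one, a cKO peak has more chances of an overlap than a Control peak, and the values of the 2 lists are each best read against their own list.

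**Figure D1:**
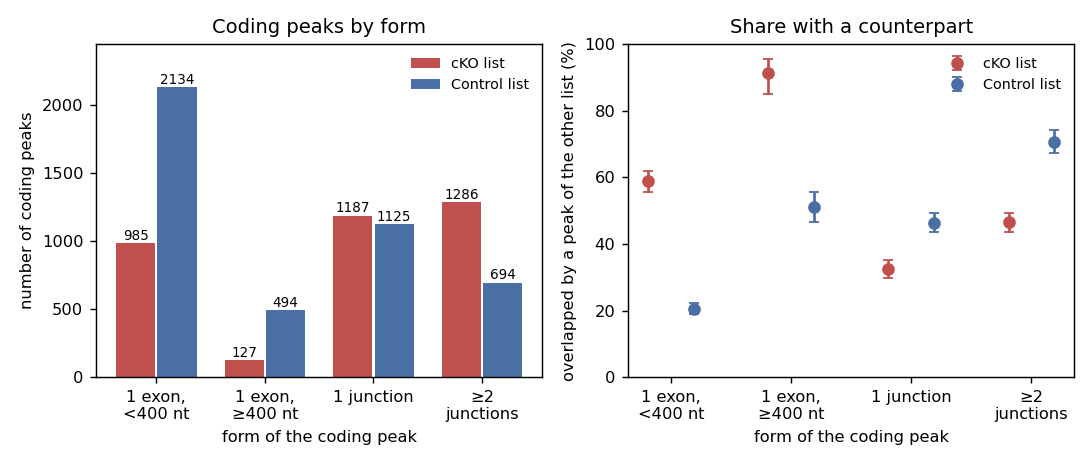
Left, number of coding peaks of each form in the cKO list (red) and the Control list (blue). Right, share of each form overlapped by a peak of the other list, with points for the share and bars for the exact 95% interval. The short one-exon form has 985 cKO and 2134 Control peaks, with 58.8% of the cKO peaks and 20.6% of the Control peaks overlapped.

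By gene the same order held. At least 1 overlapped short peak was present in 470 of the 790 cKO genes (59.5%) and in 369 of the 1504 Control genes (24.5%). Any peak at all in the other list was found for 78.9% of the cKO genes, beside 65.1% over all genes with a cKO peak, and for 54.1% of the Control genes, beside 56.1% over all genes with a Control peak. A short coding peak in the other list was found for 50.6% of the cKO genes and 26.6% of the Control genes, which are the same 400 genes seen from each side. For 41.5% of the cKO genes and 41.3% of the Control genes the short coding peak was the gene's only peak in its list. Genes with 1 such peak made up 82.9% of the cKO genes and 74.3% of the Control genes, and genes with 3 or more made up 5.44% of the cKO genes and 8.05% of the Control genes.

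What overlapped a cKO short peak was often a much longer Control peak. Among the 579 matched cKO peaks, the counterpart with the largest overlap was another short one-exon peak for 306 (52.8%), a long one-exon peak for 168 (29.0%) and a coding peak across junctions for 78 (13.5%). Among the 439 matched Control peaks, those numbers were 307 (69.9%), 42 (9.57%) and 80 (18.2%). Peaks annotated to the 3′UTR were the counterpart of 18 cKO and 8 Control peaks. Of the 168 cKO peaks matched by a long Control peak, 139 (82.7%) lay wholly inside it. Their median width was 211 nt and median fold 10.7 in the cKO list, and the Control peaks around them had a median width of 600 nt and a median fold of 102. Ahnak, which encodes a giant scaffold protein, shows this arrangement, as all 5 of its cKO short peaks, with folds of 4.13 to 19.9, lay in long Control peaks with folds of 494, 1730 and 2010. The 3 Ahnak short peaks of the Control list, with folds of 6.14, 68.2 and 732, had no cKO counterpart. Cdh5, which encodes VE-cadherin of endothelial cells, had a cKO short peak of 299 nt with a fold of 102 inside a Control peak of 687 nt with a fold of 737. Smg6, which encodes an endonuclease of nonsense-mediated decay, had a cKO peak of fold 104 inside a Control peak of 420 nt with a fold of 92.6.

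Fold enrichment and width differed between the 2 lists and, within each list, between peaks with and without a counterpart. The median fold of the short peaks was 11.0 in the cKO list (quartiles 7.36 and 19.5) and 16.5 in the Control list (quartiles 10.1 and 31.4). The lowest folds were 1.37 in the cKO list and 1.31 in the Control list. A fold of 100 or more was reached by 10 cKO peaks (1.02%) and by 118 Control peaks (5.53%), and of these 7 cKO and 50 Control peaks had a counterpart. The median width was 181 nt in the cKO list (quartiles 151 and 241) and 209 nt in the Control list (quartiles 179 and 270). The widest members had 391 nt in both lists. Widths were not spread evenly: 20.5% of the cKO peaks and 23.0% of the Control peaks were 180 or 181 nt wide, and 16.1% of the cKO peaks and 15.0% of the Control peaks were 150 or 151 nt wide. Wider peaks had higher folds, with a Spearman correlation across peaks of 0.487 over the 985 cKO peaks and 0.693 over the 2134 Control peaks. Peaks of a list share their libraries, and both measures depend on the reads under the peak, so this correlation is only a description.

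Peaks with a counterpart had the higher folds and the greater widths in both lists. In the cKO list the median fold was 12.5 for peaks with a counterpart and 9.93 for peaks without one, and the median width was 211 nt and 180 nt. In the Control list the median fold was 22.5 with a counterpart and 14.9 without, and the median width was 240 nt and 181 nt. The share with a counterpart was 60.4, 45.7, 53.3, 62.4 and 72.1% from the lowest to the highest of 5 equal classes of fold in the cKO list. In the Control list it was 16.9, 8.9, 20.4, 21.5 and 35.2%. The lowest class lay above the next one in both lists, so the share did not climb evenly with fold. With width it did climb at each step, over 5 bins that run from 100 nt, with edges at 160, 200, 250 and 300 nt, up to the size limit. These shares were 44.1, 52.0, 62.9, 77.3 and 81.5% in the cKO list and 11.7, 15.6, 23.4, 26.4 and 32.6% in the Control list. An overlap needs only 1 shared bp, so a wider peak has more chances of one, and the rise with width is partly built into the rule. Even the highest class of Control folds had a lower share with a counterpart than any cKO class. A false discovery rate above 0.05 was listed for 71 cKO peaks (7.21%), of which 32.4% had a counterpart, and for 85 Control peaks (3.98%), of which 4.71% had one.

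**Figure D2:**
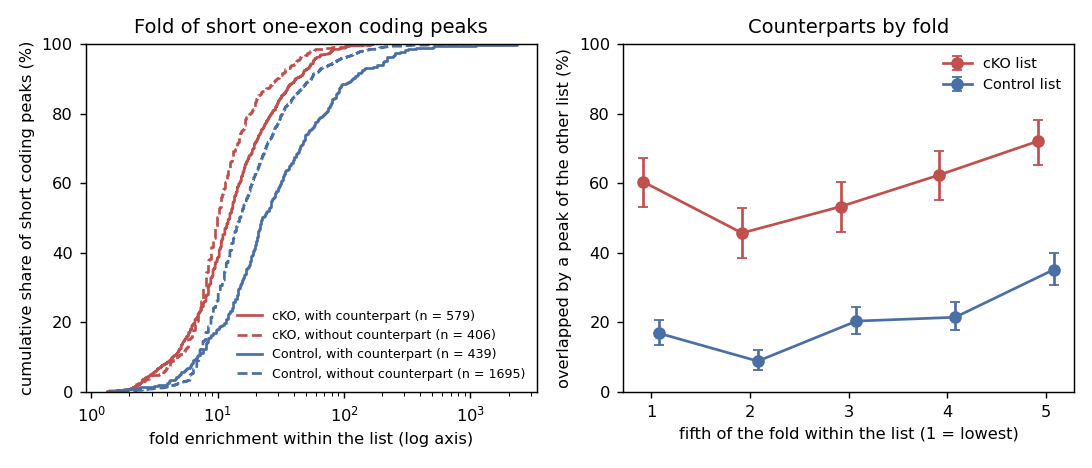
Left, cumulative share of short one-exon coding peaks against their fold within the list (log axis), for cKO peaks (red) and Control peaks (blue) with a counterpart (solid) and without one (dashed). Right, share with a counterpart in each of 5 equal classes of fold, with exact 95% intervals. The cKO shares run between 45.7 and 72.1% and the Control shares between 8.9 and 35.2%.

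Values just inside and just outside the size limit were as follows. Several members of each list share the greatest width of 391 nt, and those of highest fold among them are given. In the cKO list they were those of Kcnj8 (fold 50.8, no counterpart), Akap9 (43.8) and Zfp445 (40.8). The shortest cKO one-exon coding peaks beyond the limit were those of Hspa9 (417 nt, fold 22.8), Rhob (418 nt, 3.94) and Trim44 (419 nt, 5.0). In the Control list the members of 391 nt with the highest folds were those of Macf1 (506), Rest (318) and Mast4 (217), and the shortest Control peaks beyond the limit were those of Zfp830 (413 nt, 132), C1galt1c1 (415 nt, 81.7, no counterpart) and Dolk (416 nt, 112). Apart from Kcnj8 and C1galt1c1, each of these 12 peaks had a counterpart. For Zfp830 and Dolk it was a cKO short peak, of fold 12.1 in Zfp830 and 2.12 in Dolk, so that 1 region counts as short in the cKO list and as long in the Control list. Trim44 is the reverse case, as its long cKO peak overlapped a Control short peak of 359 nt with a fold of 52.7.

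Where a short peak of 1 list overlapped a short peak of the other, the positions are close by the way the pairs were chosen, and the folds were little related. There were 317 such pairs, 248 of which (78.2%) shared at least 50% of both peaks, and 27 of which had identical boundaries. A region with overlapping peaks in the same list, as in Pinx1, counts in more than 1 pair. The median width was 211 nt for the cKO peak and 240 nt for the Control peak, and the median shared length was 181 nt. The median fold was 13.6 for the cKO peak and 26.6 for the Control peak, and the Control peak had the higher fold in 224 pairs (70.7%). By rank within the list the pairs were closer to balance, with the cKO peak at the higher percentile in 141 pairs (44.5%). Across the 317 pairs the Spearman correlation of the cKO fold with the Control fold was 0.07, the same as across the other 2698 pairs of overlapping peaks. The correlation of their widths was 0.06.

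**Figure D3:**
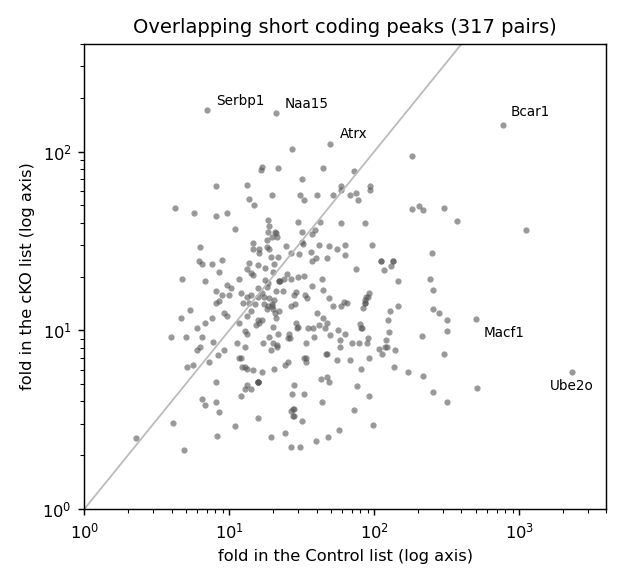
Fold of the cKO peak (vertical, log axis) against the fold of the overlapping Control peak (horizontal, log axis) for the 317 pairs of short one-exon coding peaks. The grey line marks equal folds, and 224 pairs lie on the Control side of it. Serbp1 and Naa15 lie far on the cKO side and Ube2o far on the Control side.

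The pairs with identical boundaries give listed folds for the same bases in each list. As the lists need not share a scale, a higher listed fold is not a measured difference between the genotypes. Ski, a repressor of SMAD signalling, had a peak of 180 nt at chr4:155222383-155222562 in both lists, with a fold of 18.8 in the cKO list and 22.1 in the Control list. Atf4, the transcription factor of the integrated stress response, had a peak of 328 nt at chr15:80257213-80257540 in both lists, with a fold of 5.35 in the cKO list and 42.7 in the Control list. Bag5, a co-chaperone gene, had folds of 16.9 in the cKO list and 254 in the Control list. In Cdk13, which encodes a kinase of the RNA polymerase II tail, the order was turned round, with 29.4 in the cKO list and 6.24 in the Control list. Rpl36al, a ribosomal protein gene, was low in both, with 5.15 in the cKO list and 8.07 in the Control list. Bag5 and Cdk13 are examples chosen after their values were seen.

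Of the 10 cKO short peaks with a fold of 100 or more, 7 had a Control counterpart, and in Bcar1 and Cdh5 the Control fold was the higher. These peaks were chosen by their cKO fold, so a lower Control fold is partly set by the choice. Serbp1, which encodes an mRNA-binding protein that also associates with ribosomes, had the highest fold of all cKO short peaks, 171 at chr6:67272782-67273082 on the plus strand. Its Control counterpart began at the same base and had a fold of 7.05, so the same stretch ranked at percentile 98.3 of fold in the cKO list and at percentile 10.6 in the Control list. A further Serbp1 peak had the opposite order, with a fold of 5.48 in the cKO list and 47.1 in the Control list. Naa15, the auxiliary subunit of the NatA N-terminal acetyltransferase, had a fold of 164 in the cKO list and 20.9 in the Control list. The chromatin remodeller Atrx had 111 in the cKO list and 49.9 in the Control list, and Zrsr1, a splicing factor gene related to the U2AF small subunit, had 104 in the cKO list and 27.0 in the Control list. No Control counterpart was found for the peaks of Sparcl1 (fold 160 at chr5:104092874-104093173), a matricellular protein gene with no Control peak of any kind, of Hypk (108), a partner of the NatA complex, or of Zfp36l1 (102), which encodes an AU-rich element binding protein that promotes mRNA decay. Zfp36l1 did have 2 Control short peaks elsewhere in its coding sequence, with folds of 14.5 and 11.3.

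Among the Control short peaks of highest fold, several had no cKO counterpart, and the cKO folds of the others were far lower. Ube2o, which encodes a large ubiquitin-conjugating enzyme, had the highest fold, 2320 at chr11:116539174-116539562 on the minus strand, and its cKO counterpart of 239 nt had a fold of 5.88 with a listed p of 0.00071. Macf1, a linker of actin and microtubules, had a Control peak of fold 506 around a cKO peak of 11.6. Cflar, which encodes the caspase-8 inhibitor cFLIP, had a single Control peak of fold 1160 at chr1:58752437-58752826 and no cKO peak of any kind. The natriuretic peptide clearance receptor gene Npr3 (710), the adhesion receptor gene Adgrl1 (653) and the collagen gene Col8a1 (586) likewise had no cKO peak of any kind, with 7, 3 and 3 Control peaks.

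A few short peaks ranked high in both lists. Bcar1, which encodes the integrin adaptor p130Cas, had a cKO peak of fold 141 at chr8:111713764-111714033 that lay wholly inside a Control peak of fold 773. Man1a, a Golgi mannosidase gene, had folds of 94.1 in the cKO list and 181 in the Control list, with 300 of 330 nt shared. Mrpl41, a mitochondrial ribosomal protein gene, had 48.2 in the cKO list and 302 in the Control list. The round spermatid basic protein paralogue Rsbn1l had 49.9 in the cKO list and 203 in the Control list. The adhesion receptor gene Adgrl2, of the same family as Adgrl1, had 47.1 in the cKO list and 217 in the Control list, and the zinc finger gene Zfp445 had 40.8 in the cKO list and 371 in the Control list. In each of these 6 genes the Control fold was the higher.

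Some short peaks of 1 list overlapped a junction-crossing coding peak of the other. In the cKO list the members of highest fold with such a counterpart were those of the sorting nexin gene Snx18 (cKO fold 91.6, Control fold 165), the golgin gene Golgb1 (cKO 81.1, Control 48.7), the trans-Golgi protein gene Tgoln1 (cKO 65.1, Control 20.9) and the nuclear receptor corepressor gene Rere (cKO 60.8, Control 30.9). In the Control list, with predicted and unnamed genes passed over and the fold of the junction-crossing cKO peak beside it, they were those of the nuclear pore gene Nup62 (cKO 107, Control 217), Flywch1 (cKO 8.09, Control 197), the SUMO protease gene Senp6 (cKO 34.2, Control 139) and the JmjC domain gene Jmjd1c (cKO 52.2, Control 93.8). The overlap was partial in several, as in Flywch1, where 60 of the 299 nt of the Control peak were shared.

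Some genes carried several short peaks each, and the shares matched are given beside those of all short peaks, 58.8% in the cKO list and 20.6% in the Control list. In the cKO list 9 genes had 4 or more short peaks, 44 in all, and 34 of these (77.3%) had a counterpart. In the Control list 56 genes had 4 or more, 290 in all, and 64 (22.1%) had a counterpart, near the share of all Control short peaks. The homeobox and zinc finger gene Zfhx3 had 3 cKO short peaks, all matched, and 11 Control short peaks, of which 3 were matched. The cytolinker gene Dst had 5 cKO peaks, 4 of them matched, and 9 Control peaks, 2 of them matched, and Macf1 had 3 cKO peaks, all matched, and 7 Control peaks, 2 of them matched. The kinase-anchoring gene Akap9 had 3 cKO peaks, all matched, and 8 Control peaks, 5 of them matched. Mki67, the gene of the proliferation antigen Ki-67, was matched from both sides, with 4 of 4 cKO and 5 of 6 Control peaks. Its cKO folds lay between 10.3 and 14.5 and its Control folds between 10.1 and 86.2. The histone methyltransferase gene Kmt2d had 0 cKO short peaks and 8 Control short peaks, with folds of 6.84 to 33.8 and no counterpart, although 2 cKO peaks of other forms were called in the gene. Ttn, the titin gene, had 1 cKO peak and 8 Control peaks, and none of the 9 was matched. More cKO than Control short peaks were found in Golgb1 (6 cKO, 3 Control, all matched), the corepressor gene Spen (6 cKO, 5 Control), Ahnak (5 cKO, 3 Control), the splicing coactivator gene Srrm2 (5 cKO, 2 Control) and the trichohyalin gene Tchh (5 cKO, 2 Control).

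Peaks without a counterpart lay, in most cases, in a gene with no peak in the other list or far from its nearest peak there. Of the 406 cKO peaks without a counterpart, 173 (42.6%) lay in a gene with no Control peak, and of the 1695 Control peaks, 857 (50.6%) lay in a gene with no cKO peak. For the others the median genomic distance to the nearest peak of the same gene was 1198 nt for cKO peaks and 1924 nt for Control peaks. A distance under 300 nt was seen for 28.3% of these cKO peaks and 17.8% of these Control peaks. Zfyve9, which encodes the SMAD anchor SARA, is an example of near neighbours. Its cKO peak of fold 29.4 at chr4:108718650-108718949 and its Control peak of fold 29.4 at chr4:108718351-108718590 shared no base.

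The position of the short peaks in the gene differed between the lists for the peaks without a counterpart. A RefSeq gene span could be assigned to 964 cKO and 2104 Control peaks. The last 20% of the span held 38.4% of these cKO peaks and 41.4% of these Control peaks, and the first 20% held 17.1% of the cKO peaks and 12.2% of the Control peaks. Among peaks with a counterpart the first 20% held 10.7% of cKO and 11.0% of Control peaks. Among peaks without one it held 26.4% of cKO peaks (22.1 to 31.0%) and 12.5% of Control peaks (10.9 to 14.1%). Within 500 nt of a RefSeq start lay 92 cKO short peaks (9.34%) and 61 Control short peaks (2.86%). Of the peaks without a counterpart, these were 68 in the cKO list (16.7%, 13.2 to 20.7%) and 35 in the Control list (2.06%, 1.44 to 2.86%). Of the peaks with one, they were 24 in the cKO list (4.15%) and 26 in the Control list (5.92%). Coding peaks across 1 junction without a counterpart lay near a start in 14.1% of cKO and 4.81% of Control cases, so other coding peaks also differed between the lists in this respect. The genes with a cKO short peak near the start and no counterpart included Hypk (108), Mrfap1 (86.8), Dnajb1 (51.1), the tubulin cofactor gene Tbcc (39.7), the histone gene Hist1h2ag (34.2), the translation initiation genes Eif3f (26.8) and Eif4e2 (19.9), and the respiratory chain genes Ndufc2 (22.4) and Cox5b (18.4). Those in the Control list included Rraga (115), a GTPase gene of the mTORC1 pathway, Fam110c (87.8), the helicase gene Upf1 (41.1) and the angiomotin gene Amot (36.2). These near-start genes were chosen after their values were seen.

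**Figure D4:**
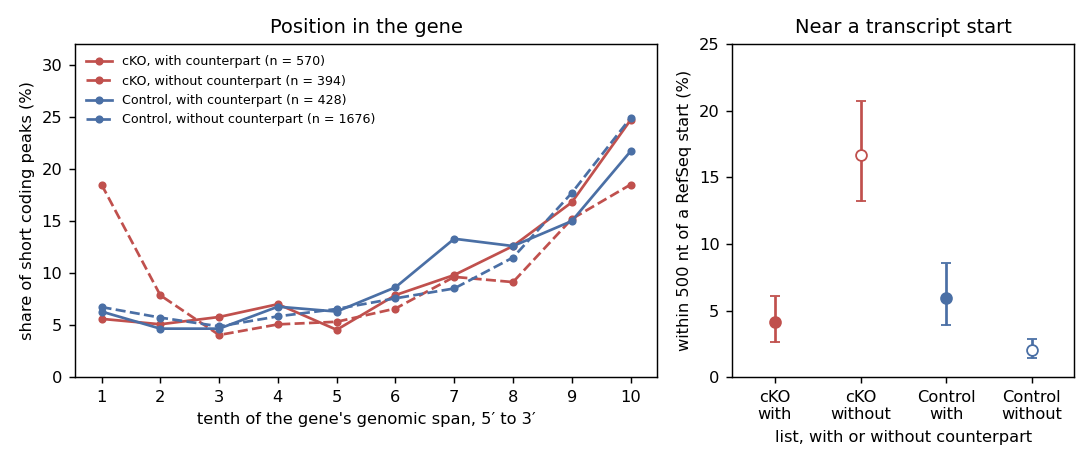
Left, share of short one-exon coding peaks in each 10% step of the gene's genomic span, for cKO (red) and Control (blue) peaks with a counterpart (solid) and without one (dashed). Right, share within 500 nt of a RefSeq start with exact 95% intervals, filled points with a counterpart and open points without. The cKO peaks without a counterpart stand apart in the first 10% and near the start, at 16.7%, against 2.06% of the Control peaks without one.

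Named groups of genes are given next by how many of their genes had a short peak in a list and, of those, how many had at least 1 with a counterpart, called matched genes. The values to read them against are 59.5% of 790 genes in the cKO list and 24.5% of 1504 genes in the Control list. Groups are small, and no test was made of any of them. A gene with several short peaks has more chances of a match, so a share by gene can stand above the share by peak.

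Genes of signalling from growth factor receptors and of membrane transport had Control short peaks and no cKO counterpart to any of them. Of the genes of receptor tyrosine kinase, PI3K and MAPK signalling, 2 had a cKO short peak and 12 had a Control one, and 1 of the 2 and 0 of the 12 (0 to 26.5%) were matched. The 12 included Met, the hepatocyte growth factor receptor gene (fold 106), the insulin receptor substrate gene Irs1 (85.0), the adaptor genes Gab1 (37.8) and Gab2 (29.4) and the insulin receptor gene Insr (26.2). Met and Irs1 had no cKO peak of any kind. Igf1r, the IGF1 receptor gene, had a short peak in both lists, 10.3 in the cKO list and 14.5 in the Control list, at places that did not overlap. Frs2, an adaptor of FGF receptors, was the matched cKO gene, with a fold of 17.3 inside a long Control peak of 484. Of the solute carrier genes, which encode membrane transporters, 3 had a cKO and 16 a Control short peak, with 2 of the 3 and 0 of the 16 (0 to 20.6%) matched. Slc5a3, the sodium and myo-inositol cotransporter gene, had a cKO peak of 5.33 inside a long Control peak of 516, and a Control short peak of 123 without a counterpart. Slc39a6, a zinc transporter gene, had a cKO peak of 37.3 inside a long Control peak of 1040, and Slc41a2, a magnesium transporter gene, a Control peak of 104 and no cKO peak. Of the protocadherin genes, which encode adhesion proteins, 2 had a cKO and 9 a Control short peak, with 1 of the 2 and 0 of the 9 (0 to 33.6%) matched. The Control intervals of the receptor signalling and protocadherin genes include the 24.5% of all genes. Pcdh18 (86.6) and Pcdh7 (65.6) had the highest Control folds. Several members of the clustered Pcdhg genes share exons, so peaks there may be listed under more than 1 gene.

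Genes with a Zfp symbol, most of which encode zinc finger proteins, formed the largest group, with 19 genes in the cKO list and 65 in the Control list. A counterpart was found for 12 of the cKO genes (63.2%) and 11 of the Control genes (16.9%, 8.76 to 28.3%). Short peaks were found in 14 of them in both lists, in 5 in the cKO list alone and in 51 in the Control list alone. Over all genes these numbers were 400, 390 and 1104. A peak of any kind was listed for 47 genes with a Zfp symbol in the cKO list and for 119 in the Control list, beside 4300 and 4986 genes in all. Zfp292 had a cKO peak of 48.0 that overlapped a Control peak of 183. Zfp651 (Control fold 129) had no cKO peak of any kind, and Zfp948 had 3 Control peaks with folds of 7.65, 31.4 and 74.5 and no counterpart. The related AU-rich element binding gene Zfp36l2 had a cKO peak of 19.9 without a counterpart.

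Chromatin regulators had matched shares by gene above those of all genes in both lists. Of 22 genes with a cKO short peak, 20 (90.9%, 70.8 to 98.9%) were matched, and of 35 with a Control short peak, 16 (45.7%, 28.8 to 63.4%) were. By peak, 25 of 35 cKO and 18 of 69 Control short peaks were matched, beside 58.8% of all cKO and 20.6% of all Control short peaks, and a gene with more short peaks has more chances of a match. Short peaks were present in 19 of these genes in both lists, in 3 in the cKO list alone and in 16 in the Control list alone. Over all genes these numbers were 400, 390 and 1104. Setd2, the H3K36 methyltransferase gene, had cKO folds of 5.30, 26.5 and 53.3, all matched, and Control folds of 5.44, 62.8 and 145, of which the peak of 62.8 was matched by the cKO peak of 26.5. The 5-methylcytosine oxidase gene Tet3 had a cKO peak of 8.83 over a Control peak of 121. Baz1b, a chromatin remodelling subunit gene, had 2 cKO and 3 Control peaks, all matched. The acetyltransferase gene Crebbp had a cKO peak of 6.62 inside a long Control peak of 127, and a Control short peak of 339 without a counterpart. The chromodomain helicase gene Chd6 had 2 peaks in each list, with cKO folds of 9.56 and 33.8 and Control folds of 7.25 and 13.7, and none of the 4 overlapped a peak of the other list.

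Genes of the Hippo pathway, which restrains the coactivators YAP and TAZ, were matched in 8 of 9 cKO genes and 4 of 10 Control genes. By peak, 10 of 11 cKO and 4 of 23 Control short peaks were matched, beside 58.8% of all cKO and 20.6% of all Control short peaks. The atypical cadherin gene Fat4 had 1 cKO short peak of 40.5 that overlapped a Control peak of 29.8, and 5 further Control peaks without a counterpart. Its relative Fat1 had 2 cKO peaks, of 10.8 and 14.3, inside junction-crossing Control peaks of 82.3 and 265, and 6 Control short peaks of 11.1 to 224 with no counterpart. Taok2, a kinase gene upstream of the pathway's core, had 8.09 in the cKO list and 57.8 in the Control list in overlapping peaks, and the phosphatase gene Ptpn14 had 24.6 in the cKO list and 8.86 in the Control list. The core kinase gene Lats2 had 1 cKO short peak, of fold 13.6 near its start, inside a Control peak across 2 or more junctions with a fold of 184. Its 2 Control short peaks, of 16.5 and 16.1, lay elsewhere in the gene, had no counterpart, and overlap each other under 2 gene identifiers. The scaffold gene Amot had a Control peak of 36.2 without a counterpart and no cKO short peak.

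Signalling by TGF-beta and BMP, a main driver of matrix production in stellate cells, had 7 genes with a short peak in each list, of which 2 in each were matched. Short peaks in the genes of the ID proteins, BMP targets that inhibit helix-loop-helix factors, were seen more in the cKO list. Id1 had a cKO peak of 50.8 and Id3 one of 16.2, neither with a counterpart, and neither gene had a Control short peak. A Control peak of another form was listed for Id1. Id2 had overlapping peaks of 33.3 in the cKO list and 21.3 in the Control list. On the Control side, the ligand gene Tgfb3 had a peak of 31.5, the receptor gene Tgfbr2 one of 11.7 and the inhibitory SMAD gene Smad6 one of 6.04, all without a counterpart. Of genes of Wnt, Notch and hedgehog signalling, 5 of 6 cKO genes and 2 of 11 Control genes were matched. The Notch ligand gene Jag1 had a Control peak of 335 at chr2:137083039-137083368 and no cKO peak of any kind. Bcl9l, a coactivator gene of beta-catenin, had a cKO peak of 57.0 inside a long Control peak of 77.7, and a Control short peak of 161 elsewhere. In Apc, the scaffold gene of the beta-catenin destruction complex, 1 of 2 cKO and 2 of 4 Control short peaks were matched. Of cytokine and JAK-STAT genes, 3 of 4 cKO and 1 of 9 Control genes were matched, with Cflar and the ubiquitin ligase gene Traf6 (54.4) among those without a cKO peak.

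Genes of stellate cells are given beside all genes. Over all genes with a peak in the list, 18.4% of cKO genes and 30.2% of Control genes had one. Among activated markers these shares were 17.4% in the cKO list and 23.8% in the Control list, among quiescent markers 22.2% in the cKO list and 26.7% in the Control list, and among collagen and matrix genes 12.5% in the cKO list and 32.1% in the Control list. Of the markers of activated cells, 3 of 4 cKO genes and 1 of 5 Control genes were matched. Cald1, the caldesmon gene, had overlapping peaks of 21.1 in the cKO list and 8.45 in the Control list. Des, the desmin gene, had a peak of 11.0 in the cKO list and one of 11.7 in the Control list that did not overlap. Lox, the collagen crosslinking oxidase gene, had a Control peak of 28.6 and no cKO peak. Of the markers of quiescent cells, 3 of 4 cKO and 2 of 4 Control genes were matched. Ecm1 had overlapping peaks of 14.6 in the cKO list and 8.45 in the Control list, and Lhx2 overlapping peaks of 10.3 in the cKO list and 6.04 in the Control list. The retinol esterifying enzyme gene Lrat (13.7) and the transcription factor gene Tcf21 (6.04) had Control peaks alone, and Hgf (2.86) a cKO peak alone. Of collagen and matrix genes, 4 of 4 cKO and 4 of 9 Control genes were matched. By peak, 4 of 7 cKO and 4 of 12 Control short peaks of this group were, beside 58.8% and 20.6% of all short peaks. Lum, the lumican gene, had overlapping peaks of 30.2 in the cKO list and 63.2 in the Control list. Vcan, the versican gene, had overlapping peaks of 15.4 in the cKO list and 88.2 in the Control list. In Vcan 1 of 3 cKO and 1 of 2 Control short peaks were matched. Col6a3 had Control peaks of 93.2 and 21.7 and no cKO peak. Of markers of other liver cells, those of hepatocytes, macrophages and cholangiocytes had 0 short coding peaks in either list, but only 1 hepatocyte, 2 macrophage and 1 cholangiocyte marker genes had a peak of any kind. Among the endothelial markers only Cdh5 had any, 1 in each list, and its Control peak of 14.8 had no counterpart.

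Chaperone and ribosomal protein genes had more genes with a short peak in the cKO list than in the Control list, and also more genes with a peak of any kind. Of 32 chaperone genes with a cKO peak, 7 (21.9%) had a short one, and of 27 with a Control peak, 3 (11.1%) did, beside 18.4% of all cKO genes and 30.2% of all Control genes. No chaperone gene had a short peak in both lists, where 400 of all 1894 genes did. Dnajb1 had a cKO peak of 51.1 without a counterpart, and Hspa5, the endoplasmic reticulum chaperone BiP, a cKO peak of 2.53 inside a long Control peak of 102. Cct5, a chaperonin subunit gene, had a Control peak of 29.2, and its fellow subunit gene Cct8 a cKO peak of 12.7, each with no peak in the other list. Of the cytosolic ribosomal protein genes, 6 of 55 with a cKO peak (10.9%) and 2 of 28 with a Control peak (7.14%) had a short one, with 2 of the cKO and 1 of the Control genes matched. Rpl6 (11.0) and Rps27rt (19.9) had cKO peaks and no Control peak. Ribosomal protein genes have many near-identical pseudogenes, so reads of these peaks may come from more than 1 locus. Translation factor genes were matched in 2 of 5 cKO and 5 of 6 Control genes, the highest Control share of the groups with at least 5 genes. Eif5 had overlapping peaks of 36.8 in the cKO list and 10.9 in the Control list. Eif3f had a cKO peak of 26.8 and no Control peak, and Eif3g a Control peak of 26.6 that overlapped a junction-crossing cKO peak of 16.5. Splicing factor genes were matched in 4 of 9 cKO and 5 of 10 Control genes. The SR protein gene Srsf1 had a cKO peak of 20.6 and no Control peak, and Son, which encodes a nuclear speckle scaffold, a Control peak of 80.5 over a junction-crossing cKO peak of 10.0.

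Immediate early and stress genes were matched in 6 of 10 cKO and 3 of 11 Control genes. Egr1, a zinc finger factor gene induced by serum and growth factors, had overlapping peaks of 14.3 in the cKO list and 87.0 in the Control list. Cebpd had a cKO peak of 34.2 without a counterpart, and Xbp1, the factor of the unfolded protein response, a Control peak of 60.8 without one. In cell cycle genes, Cdkn1a, which encodes the inhibitor p21, had overlapping peaks of 9.56 in the cKO list and 62.4 in the Control list, and Ccnd1, the cyclin D1 gene, had a cKO peak of 12.1 without a counterpart. Genes of the m6A machinery itself had short peaks in 5 cKO and 7 Control cases, with 4 of the cKO and 2 of the Control genes matched. The reader gene Ythdf1 had 3 Control peaks, of 13.7, 22.5 and 101, and no cKO peak of any kind, and the reader gene Ythdf3 a Control peak of 49.5 without a counterpart. Zc3h13, a writer subunit gene, had a cKO peak of 2.56 and Control peaks of 27.0 and 49.1, all inside junction-crossing peaks of the other list. Wtap had no short coding peak in either list. Of the remaining groups, giant cytoskeletal and adhesion genes were matched in 5 of 10 cKO and 6 of 12 Control genes. By peak, 17 of 25 cKO and 8 of 40 Control short peaks of these giant genes were matched, beside 58.8% and 20.6% of all short peaks. YAP and TEAD targets were matched in 3 of 3 cKO and 1 of 6 Control genes. Cell cycle and p53 genes were matched in 3 of 5 cKO and 2 of 4 Control genes, and genes with a Tmem symbol in 4 of 6 cKO and 2 of 6 Control genes.

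**Figure D5:**
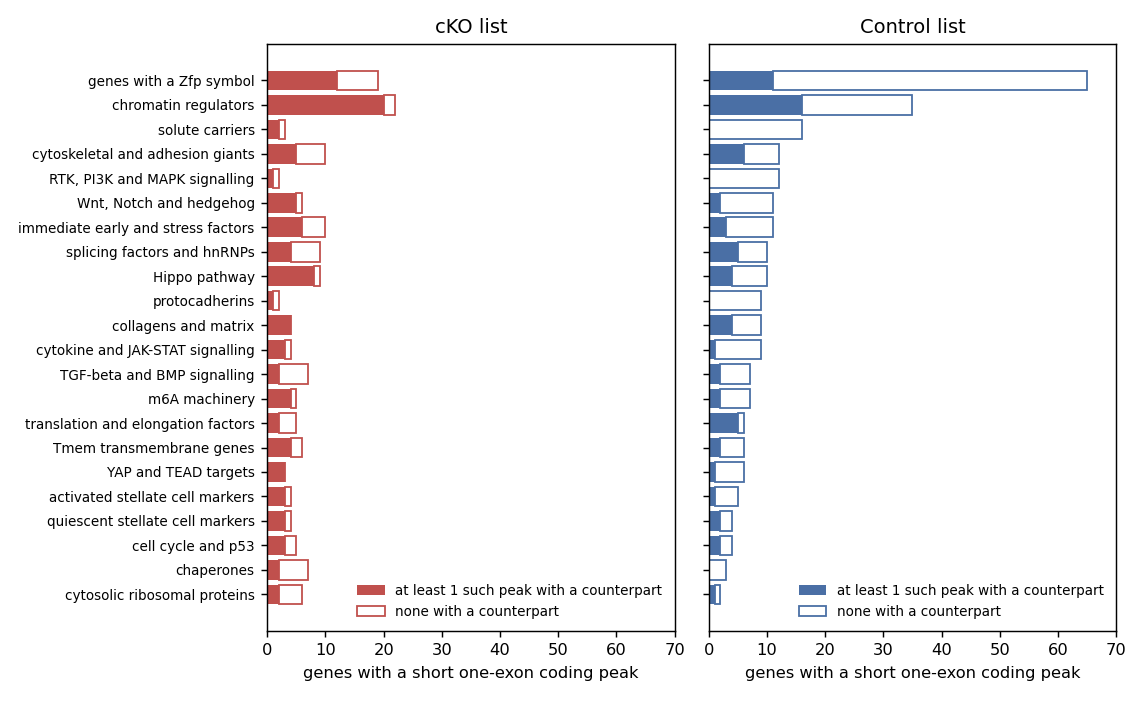
Number of genes of each group with a short one-exon coding peak in the cKO list (left, red) and the Control list (right, blue). Filled bars count genes with at least 1 such peak overlapped by a peak of the other list, open bars the others, for groups with at least 6 such genes over both lists. Genes with a Zfp symbol are the largest group, with 12 of 19 matched in the cKO list and 11 of 65 in the Control list.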

How the data were processed

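m6A-precipitated and input RNA of cKO and Control stellate cells was measured in 8 libraries, and 2 peak lists were used. Per the file headers, each deposited peak has exon blocks, a strand, a p-value (under the name score), its log10 (used as a score), a log10 false discovery rate, a class and a fold enrichment, read as a ratio. Per the submitters' processing notes, HISAT2, HOMER and mm10 were used, without their roles. No source used here names the peak caller or says how replicates were handled. Peaks with a spreadsheet error in the log10 column were taken as having the smallest p. Exon blocks were compared between the lists with code tested on simulated data, and genes were joined by symbol. RefSeq spans (GRCm38.p6) were found for 775 of 790 cKO and 1485 of 1504 Control genes. Python 3.11.15, pandas 2.3.3, numpy 2.4.6, scipy 1.17.1 and matplotlib 3.10.9 were used.

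The members, the 26 gene lists and the tests were chosen with earlier results of these data known. The rule for named genes took, for each list, those of highest fold, most short peaks and widest or nearest beyond the size limit, the best ranked in both lists, those matched across junctions, up to 2 matched and 2 unmatched per list and gene group, and Mettl3, Mettl14, Wtap and Lats2. Other genes were picked with their values in view, predicted genes were passed over in rankings, and not every gene the rule takes is reported here. The alternatives varied the size limit, the peaks admitted, the overlap and the joining of genes.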

Additional observations from a re-analysis of the deposited data

How the results depend on the processing

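The cKO share with a counterpart was above the Control share in all 12 settings that gave one, running from 31.2 to 62.9% in the cKO list and from 13.6 to 22.0% in the Control list. With 985 cKO and 2134 Control short peaks, similar numbers of overlapped peaks give the cKO list the higher share. The order is thus partly set by the sizes of the lists, and its repetition over settings adds no separate support. Of 104 recomputed values, 79 stayed within the interval of the value reported (for numbers of peaks, within 1.5 times it) and 25 moved beyond it, and the cause was not tested. With a size limit of 300 nt the share of coding peaks was 23.1% in the cKO list and 39.5% in the Control list, the share with a counterpart 54.5% in the cKO list and 18% in the Control list, the median fold 10.3 in the cKO list and 14.1 in the Control list, and the cKO median width 180 nt. With a limit of 500 nt the Control share of coding peaks was 52.0% and the Control median fold 18.1. With peaks of fold 5 or more alone, 18.5% of Control peaks had a counterpart, 51.4% of Control genes had any cKO peak and 24.0% a short one. With log10 p at or below -5 alone, 507 cKO and 1177 Control peaks were left, 21.5% of cKO and 40.1% of Control coding peaks, with a median fold of 18.8 in the cKO list, 29.2 in the Control list and a median width of 241 nt in both lists, and 62.9% of the cKO peaks had a counterpart. An overlap of 50% of both peaks gave shares of 32.6% in the cKO list and 13.6% in the Control list, and a counterpart that had itself to be short gave 31.2% in the cKO list and 14.4% in the Control list. A false discovery rate of 0.05 or less, overlapping members of a list counted once, and leaving out the mitochondrial chromosome were chosen after seeing the data and moved none of these values beyond the interval. No paired analysis was possible because each list is 1 call per genotype with no value for a replicate, and for the same reason no replicate could be left out. Depth limits every absence of a peak, and it is unknown here.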

Other observations

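Short one-exon coding peaks of mitochondrial genes, which are transcribed inside the mitochondrion, numbered 7 in the cKO list and 6 in the Control list. A counterpart was found for 2 of the cKO peaks and all 6 of the Control peaks, and the folds ran from 1.38 to 10.8 in the cKO list and from 1.58 to 4.12 in the Control list. In mt-Nd1 the peaks of both lists overlapped, with folds of 2.50 in the cKO list and 2.26 in the Control list, and in mt-Nd4 with 3.05 in the cKO list and 4.12 in the Control list. The Control short peaks of mt-Nd5, mt-Nd6 and mt-Cytb lay in cKO one-exon peaks of 499 to 1824 nt.

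Genes with a short coding peak seldom had a peak in the 3′UTR as well. In the cKO list 19.7% of the 790 genes had one, against 34.7% of the 3510 genes without a short coding peak, and in the Control list 23.7% of the 1504 genes against 50.9% of the 3482 others. Because every gene in a list has at least 1 peak, a gene without a short coding peak must have a peak of another kind, and this bears on both comparisons.

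Fold values at the low end repeated themselves. The 427 cKO short peaks with a fold under 10 held 164 distinct values, and the 523 Control short peaks under 10 held 117.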
